A study of Bos taurus with 18 samples.

Results

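The genes described here are those of the transforming growth factor-β (TGFβ) ligands, their receptors and the proteins that keep the ligands latent, together with a matrix gene named for its induction by TGFβ. They were chosen by name, with earlier results of these data known. All 10 listed symbols were found among the 16989 genes counted (TGFB1, TGFB2, TGFB3, TGFBR1, TGFBR2, TGFBR3, LTBP1, LTBP2, LTBP3 and TGFBI). RNA came from bovine mesenchymal stem cells (MSCs) of the bone marrow of 1 juvenile donor, grown on plastic in serum-containing medium to passage 1, before any chondrogenic induction. There were 17 clonal populations (clones A to Q), each described as grown from 1 cell and each sequenced once, and 1 heterogeneous population of many cells, also sequenced once. Pellets of clones and of the heterogeneous population were later induced with TGFβ, so the levels below are those of the cells before that exposure. The paper's list of pellets per clone names neither clone A nor clone N.

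TGFβ is secreted as a latent complex. The cleaved propeptide stays wrapped around the mature ligand and is tied by latent TGFβ binding proteins (LTBPs) to fibrillin and fibronectin in the matrix, from which proteases, thrombospondin and integrins can release it. The free ligand binds the type II receptor TGFBR2, which phosphorylates the type I receptor TGFBR1, and TGFBR1 then phosphorylates SMAD2 and SMAD3. In MSC pellets this signal drives the cartilage program, including aggrecan, whereas in monolayer fibroblasts it also drives contractile and matrix genes.

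Reads on genes numbered 11484812 to 18458157 in the clones (median 14193790) and 16092501 in the heterogeneous population. Levels are given as CPM, the reads of a gene per 1000000 reads on library totals scaled by TMM, a correction that keeps a few abundant genes from moving all others. Gene lengths were not used, so CPM values compare libraries for 1 gene and do not rank the genes. The cells carried stromal markers, with THY1, ENG, NT5E and CD44 at 136.7 CPM or more in every clone, although LEPR was at or near 0 throughout. Of 4 endothelial genes, CDH5 had 0 reads in every library and KDR at most 1, while PECAM1 and VWF had reads in every clone, and their summed level in the clones was 1.16 to 6.32 CPM. The summed level of 10 macrophage genes lay between 1.46 and 6.28 CPM in the clones. Of all pairs of clones, C and O were the closest. Their counts still differed by more than the sampling noise of reads (chi-square per degree of freedom 4.8, against 21.7 for the next closest pair, E and F). They are thus not 1 set of counts deposited more than once. Without technical replicates this cannot tell whether 1 library was sequenced more than once. The difference also does not show that C and O descend from separate cells. The series counts them as different clones, so both were kept in n = 17, and results that lean on them are given without them. Were they to share a founder, n would be 1 too high. A clone has no replicate, and the errors below are spreads between clones, which cannot be split into technical and biological parts. In bulk RNA, a lower level may be fewer cells that express a gene or less RNA per cell, and these cannot be told apart.

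All 10 genes passed the filter on low counts. Their SD over the 17 clones, on the log2(CPM + 0.25) scale, ran from 0.30 for TGFBR1 to 1.5 for TGFBI, against a median of 0.30 over the 10351 genes with enough reads, and 9 of the 10 lay above that median (9 or 10 under the alternatives tried). Over the clones 6 of the 10 spanned more than 2 log2 units, as did 16.8% of all genes. Counting error was small beside these spreads, at most 0.12 log2 units for the lowest count of any of them.

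**Figure D1:**
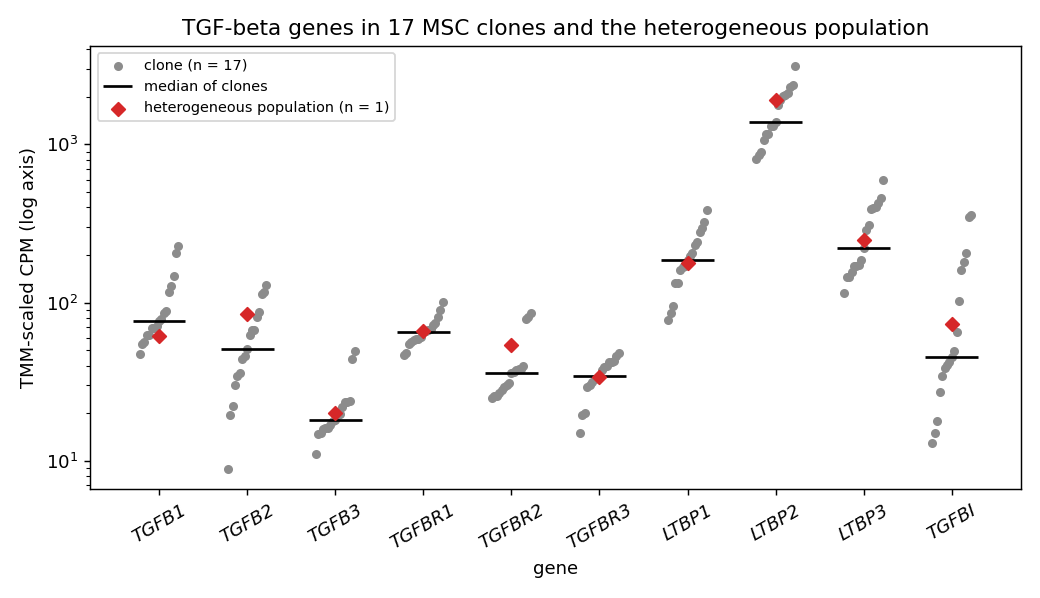
Level of each gene (x axis) in TMM-scaled CPM on a log axis, with 1 grey point per clone (17), a bar at their median and a red diamond for the heterogeneous population (1 library). The diamond lies inside the range of the clones for all 10 genes, and TGFBI has the widest range.

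The ligands TGFB1 and TGFB2 differed between clones in opposite ways. TGFB1, the ligand most widely made by cells, was lowest in clone Q at 47.3 CPM, had a median of 76.9 CPM and reached 227.3 CPM in clone O. Clones O (227.3), C (204.5), G (146.7), L (128.3) and A (115.9) stood at the top and the other 12 lay at or below 88.1 CPM. TGFB2 had the larger spread of the pair (SD 1.01 against 0.66 log2 units), from 8.93 CPM in clone L through a median of 51.1 to 130.03 CPM in clone K, a 14.6-fold range. The low end of TGFB2 was clone L, then G (19.6) and H (22.1), and its high end was K, F (116.1) and Q (112.6). TGFB3, the isoform added to the study's agarose cultures to induce chondrogenesis, ran from 11.05 CPM in clone E through a median of 18.2 to 49.8 CPM in clone P. Only P and Q (44.04 CPM) of the 17 clones exceeded 23.9 CPM for TGFB3.

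Since TGFB1 and TGFB2 are read from the same library, the ratio of their reads needs no normalization between libraries. It was 0.420 in clones K and Q, 1.35 at the median and 14.4 in clone L, and 0.729 in the heterogeneous population. TGFB1 had more reads than TGFB2 in 11 clones and fewer in 6. The ratio orders libraries only, since it was not corrected for transcript length.

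Each ligand in turn was then used as a predictor for every gene over the 17 clones, to ask whether receptors, latency proteins and the other ligands followed it. Slopes are in log2 units of the gene per log2 unit of the ligand. TGFB2 fell as TGFB1 rose, at -0.88 ± 0.25 (SE, n = 17, edgeR quasi-likelihood, adjusted p = 0.00943 over all genes). Pearson's r between them was -0.64 (permutation p = 0.00497) and Spearman's rho -0.84 (permutation p = 2e-05), and r was -0.85 without clones C and O, the 2 farthest from the median TGFB1. The slope passed the threshold with each of the 17 clones left out in turn, when it ran from -1.18 to -0.78. Without both C and O it was steeper, at -1.81 (edgeR adjusted p = 0.00196). Taken the other way, TGFB1 on TGFB2 gave -0.45 ± 0.14 (SE, edgeR adjusted p = 0.0333). That call was lost in 7 of the 17 omissions (D, E, F, G, K, L or Q, edgeR adjusted p up to 0.0779) and without both P and Q (edgeR adjusted p = 0.0841).

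LTBP1, which tethers the latent complex to the matrix, also fell with TGFB1. It was lowest in clone O (77.7 CPM) and clone C (86.4), had a median of 186.2 CPM and was highest in clone F (384.9). Thus C and O joined the highest TGFB1 to the lowest LTBP1. The slope on TGFB1 was -0.72 ± 0.20 (SE, edgeR adjusted p = 0.0100), with r = -0.67 (permutation p = 0.00305) and rho = -0.50 (permutation p = 0.0402). It rests on that pair of near-alike clones, because without clone C or without clone O the call was lost (the larger adjusted p was 0.0762), and without both r was -0.37 and the slope -0.42 (edgeR adjusted p = 0.353). On TGFB2, the LTBP1 slope of 0.31 ± 0.13 (SE) did not pass (edgeR adjusted p = 0.107).

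TGFB1 moved with much of the transcriptome, and the members' share must be read against that. Of the 9 other genes 2 passed with TGFB1, while 38.3% of the 11338 genes tested did so (18.7% with a positive and 19.6% with a negative slope), and 23.0% of them had a smaller p than TGFB2. With TGFB2 as predictor 1 of 9 passed, against 17.8% of all genes (9.16% positive, 8.6% negative). That background share rests in large part on single clones, since it was 2.05% without clone L and 8.11% without clone G, and up to 19.9% in the other omissions. The other 7 slopes on TGFB1 lay between -0.36 and 0.08 (adjusted p from 0.129 to 0.921) and the other 8 on TGFB2 between -0.13 and 0.68 (adjusted p from 0.107 to 0.907). Both receptors with kinase activity were among those that did not pass.

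**Figure D2:**
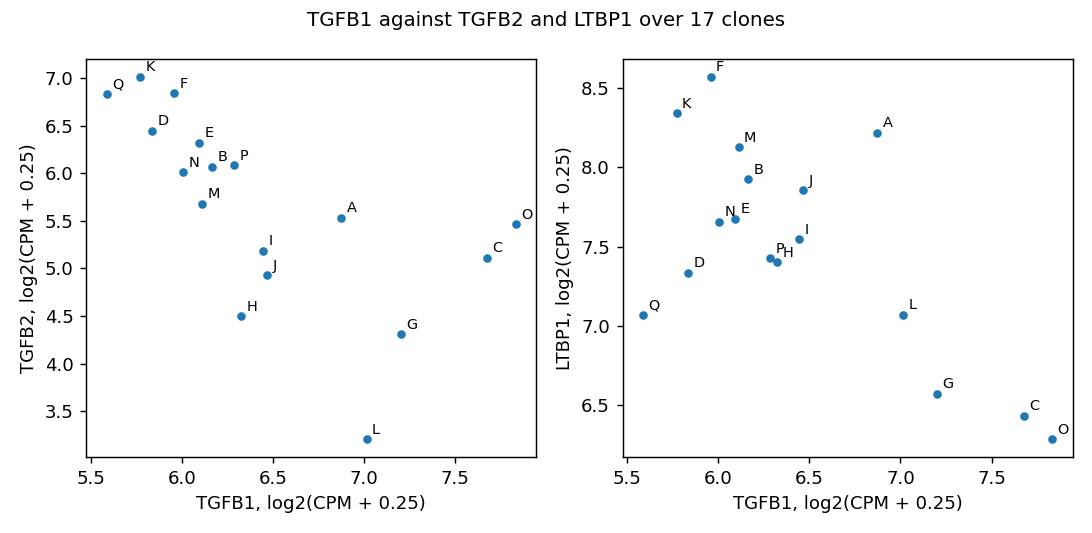
Each point is 1 of the 17 clones, labelled by its letter, with TGFB1 on the x axis and TGFB2 (left) or LTBP1 (right) on the y axis, all as log2(CPM + 0.25). TGFB2 is lowest in clone L and is higher again in G, C and O, which have more TGFB1 than L, and the low LTBP1 values at high TGFB1 are those of C, O and G.

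The pathway around these genes was described with a list of 59 further genes, of which 57 are in the files. The list was also chosen with earlier results of these data known, so its shares are descriptive only. On TGFB1, 54 were tested and 22 passed (40.7%, close to the 38.3% of all genes), 11 with a positive and 11 with a negative slope. Genes that rose with TGFB1 were FURIN, the protease that cleaves TGFβ precursors (slope 1.07 ± 0.08, SE, edgeR adjusted p = 1.55e-07), ID1, a repressor of differentiation (1.56), the inhibitory SMAD7 (0.55) and the SMAD corepressor TGIF1 (0.52). Those that fell included ZFYVE9, which presents SMADs to the receptor (-0.39), the cell cycle inhibitor CDKN2B (-1.13), CTGF, a classical TGFβ-induced matrix gene (-0.79), and USP15, a deubiquitinase of the pathway (-0.34). All 8 kept their call with each clone left out in turn, but without clones C and O together TGIF1 and USP15 lost it (adjusted p = 0.0605 and 0.0816). Among the 20 target genes, 5 passed with a positive and 2 with a negative slope.

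On TGFB2, 9 of 54 passed (16.7%, against 17.8% of all genes over the same 17 clones). THBS1, the thrombospondin that releases TGFβ from latency, rose with it (slope 0.66 ± 0.10, SE, edgeR adjusted p = 0.00253), as did the latency protein LTBP4 (0.60), the gelatinase MMP2 (0.36) and the secreted factor ANGPTL4 (0.96). CTGF, which fell with TGFB1, also rose with TGFB2 (0.48, edgeR adjusted p = 0.0123). PLAU, the urokinase protease (-0.43), and EMILIN1, an elastic fibre protein that binds the TGFβ precursor (-0.32), fell. On TGFB1 these genes also passed, with the opposite sign, apart from ANGPTL4 (-0.78, edgeR adjusted p = 0.0894). The TGFB1 slopes were -0.74 for THBS1, -0.80 for LTBP4, -0.54 for MMP2, 0.73 for PLAU and 0.55 for EMILIN1. These TGFB1 slopes and the CTGF slope on TGFB2 were not refitted with clones left out. The relations were thus not particular to TGFB2. The ANGPTL4 and PLAU calls on TGFB2 were lost without clone L (adjusted p = 0.0511 and 0.0560), and that of EMILIN1 in 9 of the 17 omissions. On TGFB3, 0 of the 54 passed by edgeR, where 0.45% of all genes did, and 13 (24.1%) had an unadjusted p under 0.05, as did 17.1% of all genes.

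By SD, TGFBR1 (0.30) and TGFBR3 (0.47 log2 units) were less spread than each of the ligands. TGFBR2 (0.59) was less spread than TGFB1 (0.66) and TGFB2 (1.01) and more than TGFB3 (0.54). TGFBR1, the type I kinase, ran from 46.6 CPM in clone H through a median of 64.8 to 100.5 CPM in clone Q, a 2.16-fold range, and 51.1% of all genes with enough reads varied more. TGFBR3, or betaglycan, a co-receptor that presents TGFB2 in particular, ran from 15.1 CPM in clone K through 34.2 to 47.9 CPM in clone P. Its low values were those of K, F (19.5) and L (20.1), and the other 14 clones lay at or above 29.5 CPM. TGFBR2, the receptor that binds ligand first, had a median of 35.7 CPM and fell into separate sets, with P (86.5), Q (81.1) and N (78.5) at the top and the other 14 clones between 24.9 and 39.9 CPM. The heterogeneous population, at 53.6 CPM, lay in the gap between them.

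TGFBR2 rose with TGFB3, at 0.84 ± 0.16 (SE, n = 17, edgeR adjusted p = 0.0290), which made 1 of 9 members past the threshold where 0.45% of 11338 genes passed (0.406% positive, 0.0441% negative). Of all genes tested 0.238% had a smaller p. The share of 0.45% was not stable, and ran from 0% without clone P to 3.27% without clone N. It was 2.70% with library totals alone and 2.65% with limma. Clones P and Q are the highest in both genes. Since the clones form separate sets in TGFBR2, no r is given over all of them. Among the 14 clones other than N, P and Q, r was 0.50 (permutation p = 0.0681) and rho 0.40 (permutation p = 0.156), and r was 0.37 without clones E and J. Without P and Q the slope was 0.56 (edgeR adjusted p = 0.952), and the call was lost in 8 of the 17 single omissions (A, B, C, E, I, L, P or Q), while the slope stayed between 0.79 and 0.88. The other 8 slopes on TGFB3 did not pass (adjusted p from 0.408 to 0.999).

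Aggrecan, the proteoglycan used as the chondrogenic marker of the study, was then the predictor. The paper reports that aggrecan RNA before induction was only weakly, and negatively, related to the matrix that clones later made. A high level is therefore not read here as a greater capacity for chondrogenesis. Aggrecan ranged from 18.4 CPM in clone H to 2667 CPM in clone N. TGFBR2 rose with aggrecan at 0.21 ± 0.05 (SE, edgeR adjusted p = 0.0149) and TGFB3 at 0.18 ± 0.05 (SE, edgeR adjusted p = 0.0457). Thus 2 of 10 passed, both positive, against 5.36% of 11226 genes (3.23% positive, 2.13% negative). The share of all genes ran from 2.34% without clone N to 10.4% without clone H, and it was 1.72% without P and Q and 1.30% without N, P and Q. Clones N, P and Q were also among the 5 clones with most aggrecan, while the other pair of high-aggrecan clones, C (1202 CPM) and O (1363 CPM), had TGFBR2 at 37.8 and 36.2 CPM, within the lower set. For TGFBR2 the call was lost without clone N (adjusted p = 0.0679) or without P and Q (0.0722), and without all of N, P and Q the slope was 0.05 (edgeR adjusted p = 0.362). Among those 14 clones r was 0.39 for TGFBR2 (permutation p = 0.172, rho 0.44, permutation p = 0.117, r 0.14 without C and O). For TGFB3 it was 0.57 (permutation p = 0.0344, rho 0.49, permutation p = 0.0751, r 0.35 without C and O). The TGFB3 slope was 0.08 without P and Q (edgeR adjusted p = 0.253) and 0.10 without N, P and Q (edgeR adjusted p = 0.170). The TGFB3 call was lost in 12 of the 17 single omissions (the largest adjusted p was 0.139) and with limma in place of edgeR (adjusted p = 0.0839). TGFB1, TGFB2, TGFBR1, TGFBR3, the LTBPs and TGFBI did not pass with aggrecan, with slopes from -0.14 to 0.12 (adjusted p from 0.247 to 0.971).

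**Figure D3:**
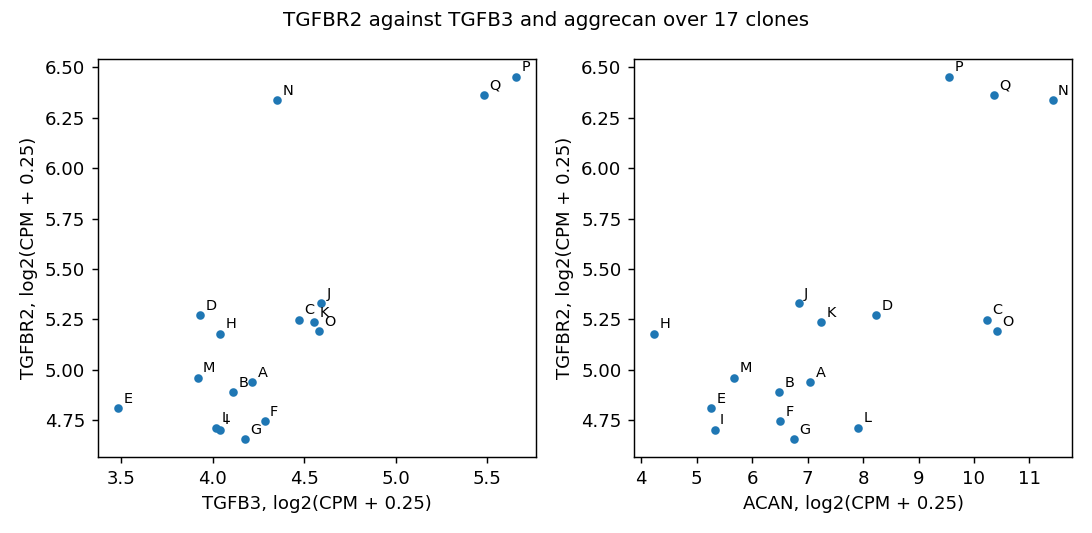
TGFBR2 (y axis) against TGFB3 (left) and aggrecan, ACAN (right), as log2(CPM + 0.25), with 1 lettered point for each of the 17 clones. Clones N, P and Q form a set of their own in TGFBR2, and C and O have high aggrecan without high TGFBR2.

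Of the wider pathway list 6 of 53 genes passed with aggrecan (11.3%, against 5.36% of all genes, a share that single omissions moved between 2.34% and 10.4%), 5 of them among the 20 TGFβ target genes tested. Of those 5, 4 fell as aggrecan rose and 1 rose. ACTA2, or smooth muscle actin, changed by -0.47 ± 0.10 (SE, edgeR adjusted p = 0.0109), TAGLN, an actin-binding protein of smooth muscle, -0.22, TPM1, a tropomyosin, -0.21, and CNN1, a calponin, -0.27 (edgeR adjusted p = 0.0145, 0.0207 and 0.0343). FN1, which encodes fibronectin, rose (0.21, adjusted p = 0.0444), as did the corepressor TGIF1 (0.14, adjusted p = 0.0398). CTGF did not pass, with a slope of -0.01 (edgeR adjusted p = 0.944). All 6 calls were lost without clones P and Q, where each slope had the same sign (edgeR adjusted p from 0.0639 to 0.20). Without C and O those of TGIF1 and CNN1 were lost (0.251 and 0.0659). Without clone N those of ACTA2, TAGLN, TPM1 and CNN1 were lost, and single omissions removed the call of FN1 in 13 and of TGIF1 in 9 of 17 cases and of CNN1 in 7. With limma FN1 and TGIF1 did not pass (limma adjusted p = 0.0618 and 0.0590).

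**Figure D4:**
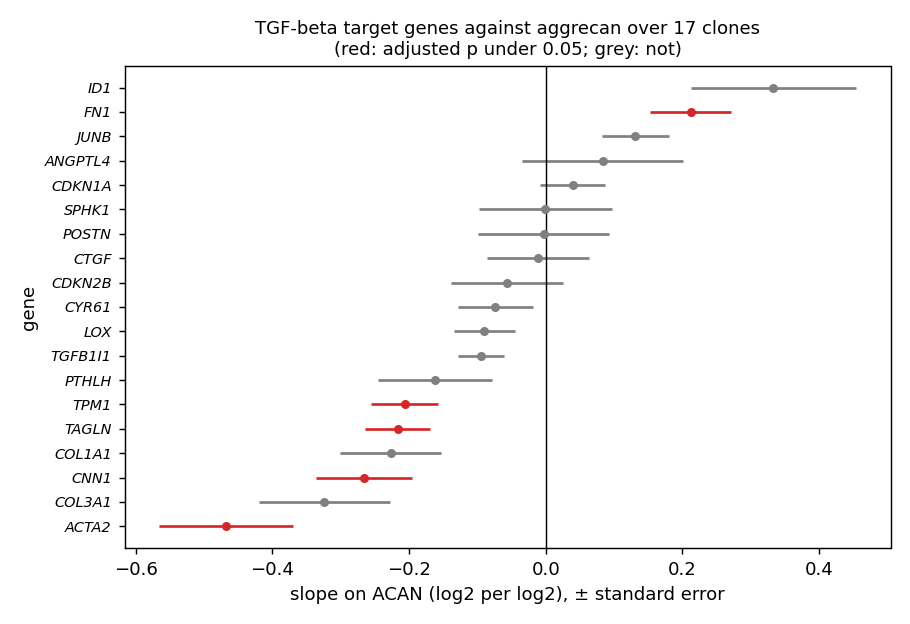
Slope of 19 TGFβ target genes (y axis) on aggrecan over the 17 clones, in log2 units per log2 unit, with bars of 1 standard error. ACTA2, CNN1, TAGLN and TPM1 in red lie below 0 and FN1 in red lies above, and the 14 grey genes did not pass an adjusted p of 0.05.

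The latency proteins had separate patterns. LTBP2, which binds fibrillin microfibrils rather than the latent ligand, ran from 810.2 CPM in clone Q through a median of 1389 to 3130 CPM in clone D. LTBP3, which binds latent TGFβ as LTBP1 does, ran from 115.1 CPM in clone E through 219.9 to 597.5 CPM in clone N. Next were L (458.3), H (428.6), P (402.6), J (394.2) and Q (390.2). N, P and Q are thus high in both LTBP3 and TGFBR2, whereas L, H and J are not. LTBP2 was lower in more deeply sequenced clones (r with reads on genes -0.59, permutation p = 0.0123, rho -0.53, permutation p = 0.0313, r -0.52 without M and P). The part of depth in the LTBP2 values was not tested beyond the fit on depth described below for TGFBI, in which LTBP2 did not pass.

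TGFBI encodes a secreted matrix protein that binds collagens and integrins. It was the most variable of the 10, and 0.657% of genes with enough reads varied more. Its level was 13 CPM in clone I, 45.4 at the median and 359.95 CPM in clone M, a 27.7-fold range. Clones M, P (348.3), E (204.8), O (180.4), C (160.0) and Q (102.8) were high, and I, L (15.1) and G (17.97) low. The high set thus included clones with much TGFB1 (O and C) and with little (Q), and the slope of TGFBI on TGFB1 was 0.08 ± 0.51 (SE, edgeR adjusted p = 0.921). TGFBI was higher in more deeply sequenced clones (r 0.68, permutation p = 0.00217, rho 0.70, permutation p = 0.00244), and without the deepest clones M and P r was 0.43. In a fit of every gene on depth the adjusted p of TGFBI was 0.572 by edgeR's test, and 0% of 11227 genes passed. These were 2 of 10 such relations with depth that were computed, and in the other 8 the permutation p of r was 0.493 or more.

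**Figure D5:**
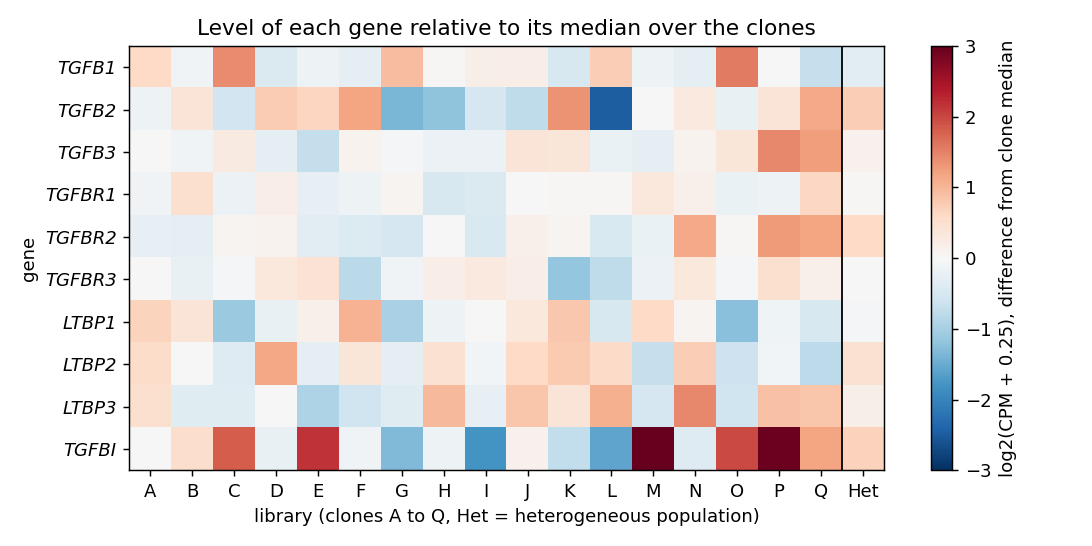
Level of the 10 genes (rows) in clones A to Q and the heterogeneous population (Het, columns), as the difference in log2(CPM + 0.25) from the gene's median over the clones. C and O share high TGFB1, low LTBP1 and high TGFBI, P and Q share high TGFB3, TGFBR2 and LTBP3, and L has the lowest TGFB2.

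For each gene, the genes with the most similar pattern over the 17 clones were found among 10350 others by Pearson's r. They describe the likeness in these libraries only, where the clones share 1 donor and near-alike clones such as C and O count separately. For TGFB1 these were PSMD3 (r = 0.97) and MYO9B (0.96), for TGFB2 PLEKHA3 (0.90) and TMEM159 (0.89), and for TGFB3 C1QL1 and DEDD2 (0.83 each). TGFBR1 was most like PLRG1 (0.86) and DNAJB5 (0.75), TGFBR2 like TMEM30B (0.96) and CA11 (0.95), and TGFBR3 like TNC (0.73) and DOM3Z (0.71). LTBP1 was most like MRVI1 (0.93) and CCDC107 (0.91), LTBP2 like FAM46B (0.84) and MFGE8 (0.83), LTBP3 like ZFP36L2 (0.94) and CERS1 (0.93), and TGFBI like ZEB1 (0.86) and COG1 (0.82). Without clones N, P and Q the likeness of the TGFB3 pair fell to 0.49 and 0.48 and that of the TGFBR2 pair to 0.74 and 0.65.

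When each clone was set against the other 16, none of the 170 combinations of gene and clone passed an adjusted p of 0.05 by edgeR, and 13 had an unadjusted p under 0.05 (limma gave 0 and 11). The background in these fits was 0.731% of 11761 genes for N, 0.034% for M and 0% for the remaining 15 clones. The smallest adjusted p was 0.288, for LTBP3 in clone N, at 1.24 log2 units above the other clones (SE 0.57). The smallest unadjusted p was that of TGFB3 in clone P, at 1.33 log2 units (SE 0.39, edgeR adjusted p = 0.832). With 1 library a clone, differences of the size of the TGFB2 deficit of clone L (-2.82 log2 units, SE 1.004, edgeR adjusted p = 0.583) were not separable from the spread of the other clones.

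The heterogeneous population was last compared with the clones, to ask whether a mixture of many cells held these genes at other levels. None of the 10 genes differed from the clones by edgeR's test, none had an unadjusted p under 0.05 by edgeR, DESeq2 or limma, and all 10 lay within the range of the clones. Of 11878 genes tested 1.22% passed (1.21% higher and 0.00842% lower), and 9.56% lay above and 8.6% below every clone. TGFB1 was at 61.8 CPM, above 3 of the clones (log2 difference -0.65, SE 0.70, 95% interval -2.03 to 0.73, adjusted p = 0.832). TGFB2 was at 84.7 CPM and below 4 clones (0.51, interval -1.16 to 2.17), TGFB3 at 19.96 CPM (-0.12, interval -1.24 to 1.005) and TGFBR2 at 53.6 CPM, below clones N, P and Q only (0.39, interval -0.76 to 1.54). TGFBR1 (66.5 CPM, 0.00, interval -0.59 to 0.59) and TGFBR3 (33.8 CPM, -0.03, interval -0.88 to 0.82) sat near the middle. The LTBPs differed by -0.17 to 0.22 log2 units, with LTBP2 at 1905 CPM. TGFBI, at 73.2 CPM, was above the median of the clones and below their mean (difference -0.49, interval -3.43 to 2.45). These intervals leave room for differences of more than 2 log2 units in TGFB1, TGFB2 and TGFBI, and the single library was assumed to vary as the clones do.

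Among the pathway genes 0 of 54 passed in that comparison by edgeR, DESeq2 or limma, and 5, 6 and 3 had an unadjusted p under 0.05. In edgeR 5.56% lay above and 9.26% below every clone. Those of edgeR included the matrix protein POSTN (19.1 CPM against 21.8 to 196.5 in the clones), the receptor-binding FKBP1A (226.9 CPM against 233.3 to 451.2), the integrin chain ITGAV (459.4 CPM against 223.3 to 389.6) and LTBP4 (241.5 CPM against 33.7 to 245.9), with adjusted p from 0.539 to 0.646. These were named after their values were seen. In the same library all 10 macrophage markers were above every clone, with a summed level of 158.5 CPM against at most 6.28 (C1QB had 1 read there and 0 in every clone), and the leukocyte gene PTPRC was at 6.70 CPM against at most 0.696. Of 4 endothelial markers only VWF was above every clone (11.2 CPM against at most 5.94). PECAM1, at 0.263 CPM, lay within the clones' range of 0.182 to 2.52 CPM, and CDH5 and KDR had 0 reads there. The part of cells that carry the macrophage and leukocyte markers in the levels of the 10 genes was not tested.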

How the data were processed

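Poly-adenylated RNA of 17 clones and 1 heterogeneous population was sequenced by the authors with 50-base single-end reads, aligned to bosTau7 with STAR (2.3.0e, per the labels) and counted with HTSeq on RefSeq genes. The deposited values are counts of reads on each gene, not normalized. Reads outside genes (18.78% to 26.81% of a file) and ambiguous reads (at most 0.192%) stayed out of library sizes, and the upper limit behind a gene with no reads (3 reads) was 0.163 to 0.261 CPM. Strand use in counting is not given in the sources used here.

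Counts were filtered with filterByExpr, scaled by TMM and tested with edgeR 4.0.16 (glmQLFit, glmQLFTest) in R 4.3.3 with Benjamini-Hochberg adjustment over all genes tested. limma 3.58.1 and DESeq2 1.42.0 were alternatives. Slopes used log2(CPM + 0.25) of the predictor. Permutation p-values are two-sided, from 100000 resamples, over 34 pairs. Named genes are the 10 members, for each of them the 2 most alike genes over the clones, and at most 4 pathway genes per direction past the threshold in a fit. The members and lists were chosen with earlier results of these data known. Of the list, IL11 and NRROS had no matching symbol. On simulated counts edgeR found 59% of genes changed by log2 2 in the single heterogeneous library (3.28% of calls false among 11877 genes), and on slopes of 1 it found 84% for TGFB1 and 81% for TGFB3 (11339 genes each) and 99% for aggrecan (11227 genes). Slopes of 0.5 were found less often by edgeR, at 35.5% for TGFB1, 20.5% for TGFB3 and 94% for aggrecan. Smaller slopes and slopes on TGFB2 were not simulated. For changes of log2 2 in the heterogeneous library, 11.3% of limma calls and 24.7% of DESeq2 calls were false. Each simulation changed 200 genes and drew every gene and library independently. In the data 38.3% of genes passed with TGFB1, and clones C and O were near-alike. These simulated rates may therefore not carry over to the data. Alternatives were other scalings, no filter, a pseudocount of 1, the heterogeneous population added to slopes, and clones left out. Python 3.11.15, numpy 2.4.6, scipy 1.17.1, pandas 2.3.3 and matplotlib 3.10.9 did the rest. Coordinates and sequences were not analysed here. A target gene of the list stays in the counts but is not reported here by name or in the figure.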

Additional observations from a re-analysis of the deposited data

How the results depend on the processing

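No paired analysis was possible because the groups share only replicate number 1, which names libraries in order and links none of them. The count of members passing in the heterogeneous population (0) and in single clones (0) was 0 under every alternative run, as was that of pathway genes in the heterogeneous population. Some differences of the heterogeneous population changed sign, slight ones except for TGFBI (-0.49 in the main fit), all far from the threshold. For TGFBR1 the difference was -0.000651 with DESeq2 size factors, -0.0819 with library totals alone, -0.000641 by DESeq2 and -0.0101 without clones C and O. With limma it was 0.0372 for TGFBR3, 0.0126 for LTBP3 and 0.26 for TGFBI. With each clone left out it ran from -0.0134 to 0.0612 for TGFBR1, from -0.0781 to 0.0203 for TGFBR3 and from -0.164 to 0.0164 for TGFB3. For the slopes, the number of members that passed was 1 instead of 2 on TGFB1 without C and O, 0 instead of 1 on TGFB2 and on TGFB3 without P and Q, and 0 on each also without N, P and Q. On aggrecan it was 1 with limma instead of 2, 0 without P and Q and 0 without N, P and Q. With each clone left out it ran from 1 to 2 on TGFB1, 0 to 1 on TGFB2, 0 to 1 on TGFB3 and 1 to 2 on aggrecan. The settings that leave out sets of clones, and the fit on depth, were chosen after seeing the data. The background share on TGFB3 was 0.45% by TMM but 2.70% with library totals and 2.65% with limma, and on TGFB1 it was 18.4% without C and O. With each clone left out it ran from 0% to 3.27% on TGFB3 (lowest without P, highest without N). The cause was not tested. Gene lengths, strand and counting of shared exons limit levels between genes, and 1 library a clone limits every comparison.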
